A study of Mus musculus with 6 samples.

Results

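TGF-β reaches the nucleus of a T cell through a short chain of proteins, and 10 genes that encode this chain and its brakes were followed in WT and Irf1-/- Th9 cells. They were chosen by name: the ligand gene Tgfb1, the receptor genes Tgfbr1, Tgfbr2 and Tgfbr3, the signalling SMAD genes Smad2, Smad3 and Smad4, and the inhibitor genes Smad7, Ski and Skil. All 10 were found by Ensembl identifier among the 41388 genes of the table, and all 10 entered the test, which covered the 11379 genes whose normalized counts averaged 10 or more. The RNA-Seq libraries came from 3 WT and 3 Irf1-/- cultures of C57BL/6 T cells, naive CD4+ by the study's methods. The cells were taken from spleen and lymph nodes of mice aged 8 to 12 weeks. By the methods, CD4+ T cells were isolated by magnetic removal of other cells, and in some experiments a further sort gave naive CD44-CD62L+ cells. Every culture, WT or mutant, was activated and kept for 2 days. The medium held IL-2, IL-4 at 20 ng per ml, TGF-β at 1.5 ng per ml and IFN-γ at 5 ng per ml. No library therefore lacked TGF-β or IFN-γ. The methods also put an antibody against mouse IFN-γ in the priming cultures, and the added IFN-γ was from rat. Irf1 encodes IRF1, a transcription factor induced by IFN-γ, and the Irf1-/- mice carried its disrupted allele in all of their cells. The labels number the replicates without naming animals, and p-values therefore measure the spread between these cultures.

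The active TGF-β dimer binds the type II receptor, which then phosphorylates the type I receptor. The type I receptor phosphorylates SMAD2 and SMAD3, which join SMAD4 and bind DNA in the nucleus. SMAD7 blocks the type I receptor, and SKI and SKIL (also called SnoN) sit on SMAD complexes as co-repressors. Together with IL-4, TGF-β turns naive CD4+ T cells into IL-9-producing Th9 cells, whereas TGF-β without IL-4 favours Foxp3+ regulatory T cells.

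The libraries held between 5639788 and 13348230 reads on genes, the largest being replicate 3 of both genotypes. The targeted gene Irf1 had normalized counts of 2968, 2907 and 2660 in WT and 1780, 1729 and 1476 in Irf1-/- cells, so that reads on it persisted in the mutant at 58.4% of the WT mean. Xist, the RNA of the inactive X chromosome, was at 2.50 and 6.01 in WT replicates 1 and 2 but at 16973 to 19403 in the other 4 libraries, and Y-linked Ddx3y was at 849 and 939 in those same WT libraries against 0 to 4.16 elsewhere. The methods describe sex-matched mice, but these RNAs differed between the genotypes, and each of the 10 genes is therefore also given with the Ddx3y level as a covariate and in the 4 libraries with Xist. In the latter fit WT is 1 library, assumed to vary like the Irf1-/- group. The covariate nearly sets WT replicates 1 and 2 apart from all other libraries. The genotype difference with the covariate therefore also rests mostly on WT replicate 3, and the fits are not separate support for each other. Over all tested genes these fits called fewer genes, 17.5% with the covariate and 6.89% in the libraries with Xist against 23.7% with all 6 libraries and no covariate, and lost calls are to be read against these shares. The summed level of 7 CD4 T cell markers ranged from 14684 to 15406 in WT and from 14302 to 15103 in Irf1-/- cells, with 2 of the 7 called lower. Markers of other cells were scarce: CD8 T cells 20.3 to 41.2, B cells 18.7 to 43.0, NK cells 0 to 2.39, platelets 12.9 to 62.4 and stromal cells 9.22 to 16.0 in sum. The 7 myeloid markers summed to 21.2 to 149 in WT and 16.0 to 993 in Irf1-/- cells, with the highest sum in Irf1-/- replicate 2, and no marker of these other lineages was called. The 5 regulatory T cell markers summed to 12805 to 17002 in WT and 14082 to 16995 in Irf1-/- cells, with Foxp3 called higher and Ikzf2 lower.

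Of the 10 genes, 3 were lower in Irf1-/- cells (Ski, Skil and Smad2) and 1 was higher (Smad3) at an adjusted p below 0.05. The other 6 did not pass the test. By the same test 23.7% of all tested genes were called, 12.4% lower and 11.4% higher. Values of the genotypes did not overlap for 6 of the 10 genes, against 40.5% of all tested genes. With only 10 genes, these shares are a description. The median log2 fold change of the 10 genes was -0.06, and that of all tested genes was -0.004. The fold change of Smad3 was larger in absolute value than that of 90.4% of tested genes, and those of Ski, Skil and Smad2 exceeded 76.9%, 76.2% and 65.8%.

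**Figure D1:**
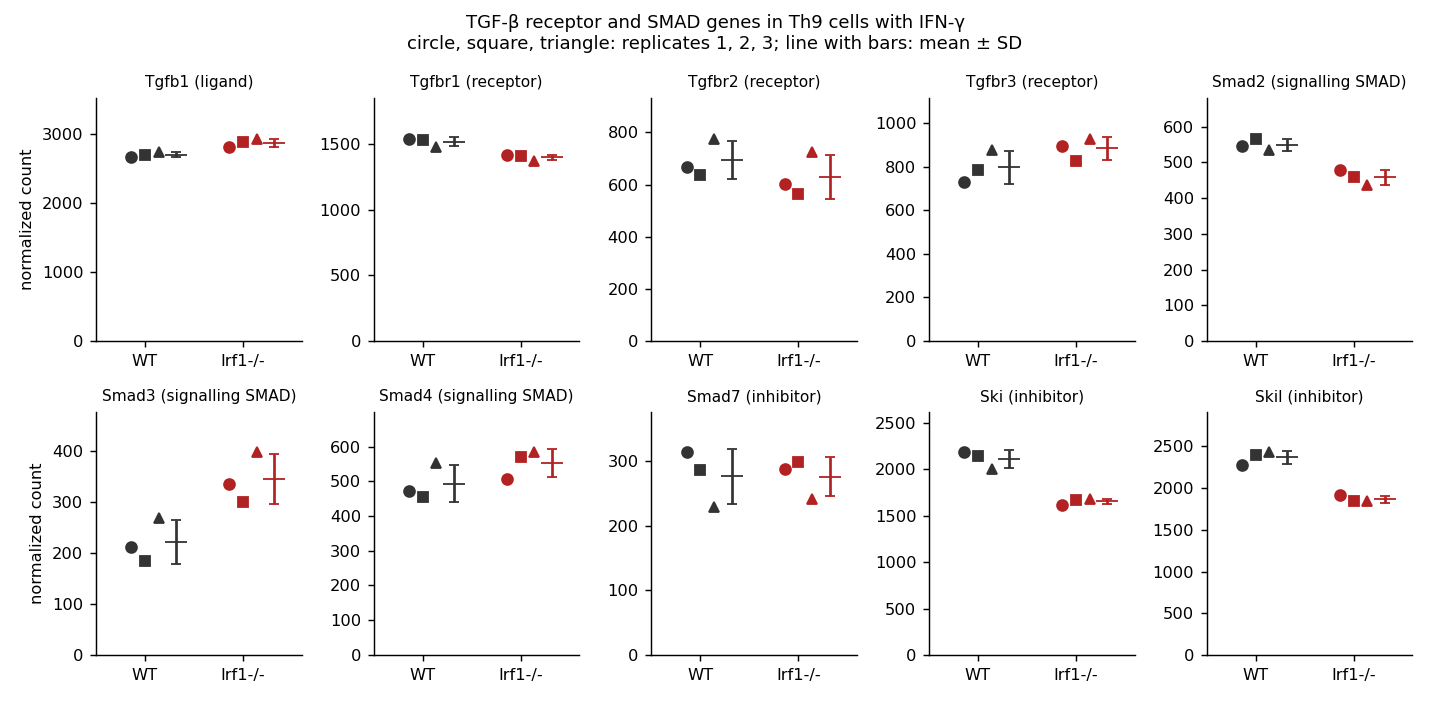
Normalized counts (y axis, from 0) of the 10 genes in the 3 WT and 3 Irf1-/- libraries (x axis), with circle, square and triangle for replicates 1, 2 and 3 and a line with bars for the mean ± SD. Ski, Skil and Smad2 sit lower in every Irf1-/- library than in any WT library, and Smad3 sits higher.

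The reference promoters of the most different genes with a window in RefSeq are shown here, because the study concerns a DNA-binding factor. Windows were found for 5 of the 10 genes, Tgfb1, Tgfbr1, Tgfbr2, Smad3 and Ski, and Tgfbr1 had a pair of them. For Smad3, which rose, the 250 bases before the RefSeq start are printed, and for Ski, which fell, the 193 bases of its window that lie before the GENCODE start, without those nearest the RefSeq start. Both run 5′ to 3′ on the strand of the gene, in build GRCm38.p6. Ski is shown from chr4:155222593-155222785 on the minus strand and Smad3 from chr9:63757995-63758244 on the minus strand. Capitals mark GC boxes (GGGCGG or its reverse complement CCGCCC), the letters that SP1-family factors read.
Ski: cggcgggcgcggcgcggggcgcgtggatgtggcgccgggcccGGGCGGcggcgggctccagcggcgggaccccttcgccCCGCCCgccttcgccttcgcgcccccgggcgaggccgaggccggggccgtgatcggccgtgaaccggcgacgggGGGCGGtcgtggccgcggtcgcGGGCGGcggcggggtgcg
Smad3: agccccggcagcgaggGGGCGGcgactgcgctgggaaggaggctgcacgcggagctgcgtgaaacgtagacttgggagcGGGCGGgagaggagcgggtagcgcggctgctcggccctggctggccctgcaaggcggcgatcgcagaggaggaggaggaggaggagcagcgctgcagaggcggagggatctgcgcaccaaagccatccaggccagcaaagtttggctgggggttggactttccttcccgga

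Both stretches were rich in G and C, with 86.5% for Ski and 69.2% for Smad3 against a median of 52.4% over the 32851 RefSeq windows. GC boxes numbered 4 in the shorter Ski stretch, 5 in its whole window of 250 bases (the fifth 55 bases before the RefSeq start) and 2 in the Smad3 stretch. The windows of the genes not called held 5 for Tgfb1, 2 and 0 for Tgfbr1 and 0 for Tgfbr2. Of all windows, 32.7% held at least 1 in the 250 bases before the start. The GC box was searched only after the other motifs had given no match in these stretches. On either strand, the ISRE-like letters AANNGAAA, which interferon regulatory factors read, were in 21.3% of all windows and in none of the 6 windows of these genes. The SMAD letters CAGACA were in 17.1% of all windows and in 1 of the 6, the second Tgfbr1 window, 203 bases before the start. The SMAD palindrome GTCTAGAC was in 0.167% of all windows and in none of the 6. These are letters in short windows and say nothing of binding elsewhere.

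Tgfb1 encodes the ligand TGF-β1, which T cells also make themselves. It lies at chr7:25687002-25705077 on the plus strand (ENSMUSG00000002603) and had normalized counts of 2663, 2699 and 2734 in WT and 2814, 2876 and 2930 in Irf1-/- cells. All mutant libraries were above all WT libraries, but by little. The means were 2699 ± 35.5 and 2873 ± 57.7 (SD, n = 3), which differed by 0.09 on the log2 scale (95% interval -0.01 to 0.19, adjusted p = 0.197, limma). The added cytokine itself is a protein and is not seen in these counts. Quantile normalization moved it past the threshold, at 0.14 with an adjusted p of 0.0417. It was 0.08 with the Ddx3y covariate (adjusted p = 0.429) and 0.07 in the libraries with Xist (adjusted p = 0.642).

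None of the 3 receptor genes passed the test with all 6 libraries. Tgfbr1 (chr4:47353222-47414931, plus strand, ENSMUSG00000007613) encodes the type I receptor, the kinase that phosphorylates SMAD2 and SMAD3. Its normalized counts were 1540, 1533 and 1477 in WT and 1414, 1405 and 1373 in Irf1-/- cells. The genotypes did not overlap, and replicate 3 was the lowest in each. The mean of 1517 ± 34.4 against 1397 ± 21.5 (SD, n = 3) corresponded to -0.12 on the log2 scale (95% interval -0.23 to -0.01), with an adjusted p of 0.12 over all genes (limma). The difference was -0.09 with the Ddx3y covariate (adjusted p = 0.416) and -0.08 in the libraries with Xist (adjusted p = 0.624).

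Tgfbr2 (chr9:116084293-116175360, minus strand, ENSMUSG00000032440) encodes the type II receptor, the chain that binds the ligand first. Its normalized counts were 666, 638 and 776 in WT and 602, 562 and 725 in Irf1-/- cells. The groups overlapped, because Irf1-/- replicate 3 lay above WT replicates 1 and 2. Replicate 3 was the highest in both genotypes. The means of 694 ± 72.9 and 629 ± 85.0 (SD, n = 3) differed by -0.14 on the log2 scale (95% interval -0.37 to 0.08, adjusted p = 0.349 by limma). The difference was -0.31 both with the Ddx3y covariate and in the libraries with Xist, where the adjusted p was 0.0603 and 0.215. Without WT replicate 3 it was -0.06, without Irf1-/- replicate 2 -0.07 and without Irf1-/- replicate 3 -0.25, none of them called.

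Tgfbr3 (chr5:107106570-107289629, minus strand, ENSMUSG00000029287) encodes betaglycan, a co-receptor that presents the ligand to the type II receptor. Libraries of WT cells gave 729, 784 and 875 normalized counts, and those of Irf1-/- cells gave 895, 827 and 928. The ranges overlapped, with WT replicate 3 among the mutant values. Means of 796 ± 73.7 and 883 ± 51.8 (SD, n = 3) differed by 0.15 on the log2 scale (95% interval -0.02 to 0.33, adjusted p = 0.185, limma). Leaving out 1 library moved the difference from 0.09 without WT replicate 1 (adjusted p = 0.509) to 0.22 without WT replicate 3 (adjusted p = 0.0452), and it was 0.02 with the Ddx3y covariate and 0.01 in the libraries with Xist (adjusted p = 0.911 and 0.96). Several short gene models lie within Tgfbr3, and reads shared with them could not be told apart.

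The signalling SMADs did not move together. Smad2 fell and Smad3 rose in Irf1-/- cells, and Smad4 did not pass the test.

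Smad2 (chr18:76241580-76310963, plus strand, ENSMUSG00000024563) encodes a receptor-regulated SMAD. It was at 545, 566 and 533 normalized counts in WT and at 479, 458 and 437 in Irf1-/- cells. Every mutant library was below every WT library. Its mean of 548 ± 16.8 in WT and 458 ± 20.8 in Irf1-/- cells (SD, n = 3) put the mutant at 83.5% of WT. On the log2 scale the difference was -0.26 (standard error 0.0681, 95% interval -0.41 to -0.11, adjusted p = 0.0194, limma). Because these were bulk cultures, fewer cells that make Smad2 and less Smad2 RNA per cell cannot be told apart, here and for every gene below. The call was lost with DESeq2 (adjusted p = 0.073), without WT replicate 1 (0.0631), without WT replicate 2 (0.0841) and without Irf1-/- replicate 2 (0.0556), while the log2 fold change stayed between -0.29 and -0.23. It was also lost with the Ddx3y covariate, at -0.23 with an adjusted p of 0.11, and in the libraries with Xist, at -0.22 with an adjusted p of 0.276.

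Smad3 (chr9:63646767-63757994, minus strand, ENSMUSG00000032402) encodes the other receptor-regulated SMAD of this pathway, which unlike the main form of SMAD2 binds DNA directly. Its normalized counts were 213, 185 and 269 in WT and 337, 301 and 398 in Irf1-/- cells, from 154 to 622 reads per library. The groups were separate, and replicate 3 was the highest in each. Smad3 averaged 223 ± 42.8 in WT and 345 ± 48.8 in Irf1-/- cells (SD, n = 3), or 155% of WT. With all 6 libraries and no covariate this was the largest difference among the 10 genes, 0.64 on the log2 scale (standard error 0.142, 95% interval 0.32 to 0.95, adjusted p = 0.00914, limma). Beside the sex-linked split of the WT libraries it was smaller and no longer called: 0.36 with the Ddx3y covariate (95% interval 0.07 to 0.64, adjusted p = 0.0821) and 0.35 in the libraries with Xist (95% interval -0.01 to 0.70, adjusted p = 0.228). Between the larger libraries alone, replicate 3 of each genotype, it was 0.56. In both sex-linked fits the difference of Skil, at -0.38, was larger in size. Without a mean-variance trend in the fit, the adjusted p of Smad3 was 0.0536.

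Smad4 (chr18:73639009-73703780, minus strand, ENSMUSG00000024515) encodes the common partner that SMAD2 and SMAD3 need. Normalized counts of 473, 454 and 553 in WT and 507, 569 and 583 in Irf1-/- cells overlapped through WT replicate 3. The means, 493 ± 52.2 and 553 ± 40.3 (SD, n = 3), differed by 0.17 on the log2 scale (95% interval -0.03 to 0.36, adjusted p = 0.205, limma). A processed pseudogene on the other strand overlaps Smad4. Leaving out 1 library moved the difference from 0.11 without WT replicate 2 (adjusted p = 0.496) to 0.25 without WT replicate 3 (adjusted p = 0.0466), and it shrank to 0.04 with the Ddx3y covariate and to -0.001 in the libraries with Xist.

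Smad3 and Smad2 were also set against each other within a library, which removes the library's scaling. The ratio of their normalized counts was 0.392, 0.328 and 0.506 in WT and 0.704, 0.658 and 0.910 in Irf1-/- cells. Smad2 had the higher count in all 6 libraries, and every mutant ratio exceeded every WT ratio. The mean log2 ratio was -1.31 ± 0.31 in WT and -0.42 ± 0.25 in Irf1-/- cells (SD, n = 3), a difference of 0.90, with p = 0.1 by an exact two-sided permutation test, the smallest p that 3 against 3 libraries allow. The difference ranged from 0.75 to 1.06 when each library was left out, and it was 0.57 in the libraries with Xist, a value with no test. For the receptors, the ratio of Tgfbr2 to Tgfbr1 was 0.433, 0.417 and 0.526 in WT and 0.426, 0.400 and 0.528 in Irf1-/- cells. These ratios overlapped, with replicate 3 high in both genotypes and a difference of -0.03 in the mean log2 ratio (p = 0.8, exact two-sided permutation test). With the ratio of Skil to Ski given further on, 3 ratios were compared, and the Benjamini-Hochberg adjusted p over them was 0.3 for Smad3 to Smad2 and 1.0 for the others.

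**Figure D2:**
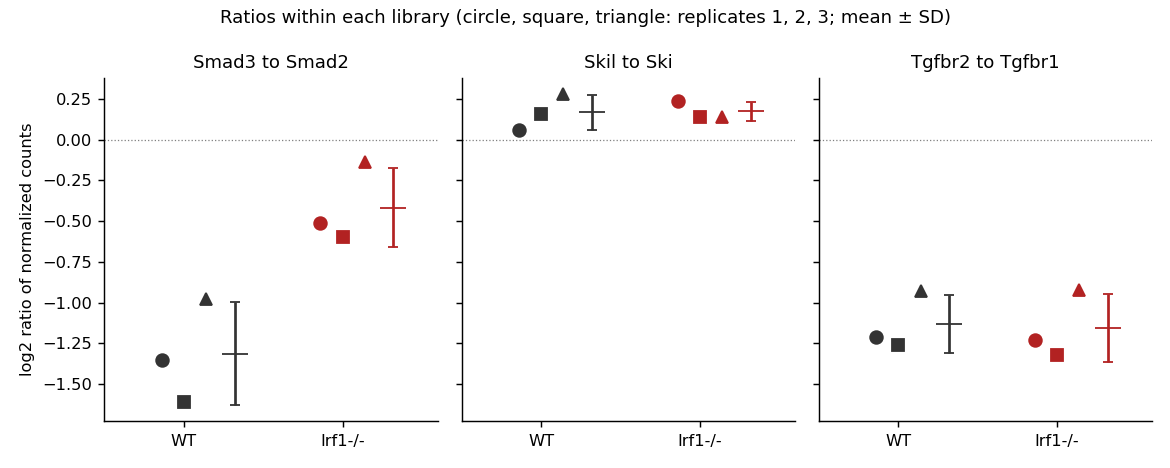
Log2 ratios of normalized counts within each library (y axis) for Smad3 to Smad2, Skil to Ski and Tgfbr2 to Tgfbr1, with circle, square and triangle for replicates 1, 2 and 3 of WT and Irf1-/- cells (x axis) and a line with bars for the mean ± SD. The Smad3 to Smad2 ratio is higher in every Irf1-/- library, from -0.60 to -0.14, than in any WT library, from -1.61 to -0.98, and the other ratios overlap between genotypes.

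Among the inhibitors, the co-repressors Ski and Skil fell in Irf1-/- cells to about the same share of WT, and Smad7 was at closely similar means that did not pass the test. Ski (chr4:155154075-155222592, minus strand, ENSMUSG00000029050), whose promoter is printed above, encodes a co-repressor that binds SMAD complexes and recruits histone deacetylases. Its normalized counts were 2183, 2145 and 2005 in WT and 1621, 1667 and 1677 in Irf1-/- cells. The gap between the genotypes, from 1677 to 2005, was wider than the spread within either. Means of 2111 ± 93.5 and 1655 ± 29.6 (SD, n = 3) put the mutant at 78.4% of WT, or -0.35 on the log2 scale (standard error 0.0535, 95% interval -0.47 to -0.23, adjusted p = 0.00126, limma). It was -0.29 with the Ddx3y covariate (adjusted p = 0.00785) and -0.28 in the libraries with Xist, where it was no longer called (adjusted p = 0.0755).

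Skil (chr3:31095058-31122577, plus strand, ENSMUSG00000027660) encodes the related co-repressor SnoN, itself known as a gene that TGF-β induces. It had 2276, 2403 and 2428 normalized counts in WT and 1917, 1842 and 1842 in Irf1-/- cells. Again no mutant library reached the lowest WT library. The means were 2369 ± 81.4 in WT and 1867 ± 43.7 in Irf1-/- cells (SD, n = 3), or 78.8% of WT. The log2 fold change was -0.34 (standard error 0.0515, 95% interval -0.46 to -0.23) with an adjusted p of 0.00115 (limma). Skil alone among the 10 genes was called in every fit, including that with the Ddx3y covariate, at -0.38 with an adjusted p of 0.00182, and that on the libraries with Xist, at -0.38 with an adjusted p of 0.024.

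The ratio of Skil to Ski was 1.04, 1.12 and 1.21 in WT and 1.18, 1.10 and 1.10 in Irf1-/- cells. The ranges overlapped, and the mean log2 ratio was 0.17 ± 0.11 in WT and 0.17 ± 0.06 in Irf1-/- cells (SD, n = 3). The difference was 0.01, with p = 1.0 by an exact two-sided permutation test, and it changed sign when 1 library was left out, from -0.05 without WT replicate 1 to 0.06 without WT replicate 3.

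Smad7 (chr18:75367529-75395935, plus strand, ENSMUSG00000025880) encodes the inhibitory SMAD, a feedback gene of TGF-β that is also known to respond to IFN-γ. Its normalized counts of 313, 286 and 229 in WT and 287, 298 and 241 in Irf1-/- cells overlapped, and replicate 3 was the lowest in each genotype. The means were 276 ± 43.2 and 275 ± 30.3 (SD, n = 3). The log2 fold change was 0.00, but its 95% interval from -0.28 to 0.28 (adjusted p = 0.993, limma) would hold a change as large as that of Smad2 in either direction. It was 0.24 with the Ddx3y covariate (adjusted p = 0.213) and 0.26 in the libraries with Xist (adjusted p = 0.353). Its direction turned with the setting.

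**Figure D3:**
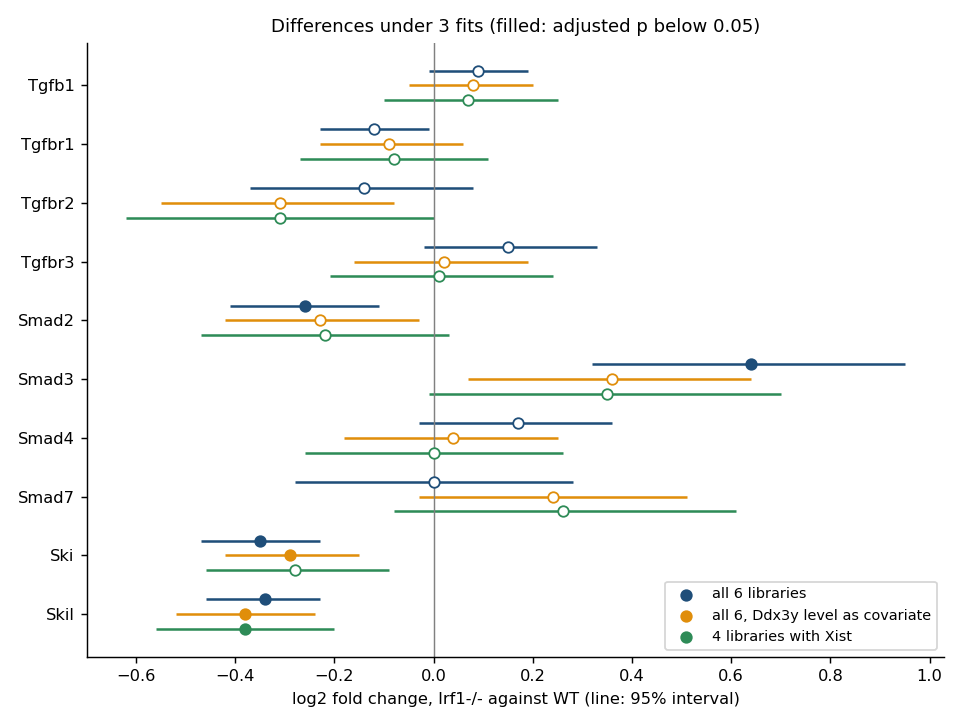
Log2 fold changes of the 10 genes, Irf1-/- against WT (x axis, lines for 95% intervals), with all 6 libraries (blue), with all 6 and the Ddx3y level as a covariate (orange) and in the 4 libraries with Xist (green), where filled points have an adjusted p below 0.05. Skil is filled in all of the fits, Ski in the first and the second, and Smad2 and Smad3 only with all 6 libraries and no covariate.

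Replicate 3 stood to one side of replicates 1 and 2 in both genotypes for most of these genes. It was the highest library in both for 5 genes (Tgfb1, Tgfbr2, Tgfbr3, Smad3 and Smad4) and the lowest in both for 3 (Tgfbr1, Smad2 and Smad7). For Ski and Skil it was neither. Replicate 3 had the largest library in each genotype, and in WT it was also the library with Xist. Their part in the result was not tested. In the comparison of the replicate 3 libraries alone, with no test, Ski differed by -0.26, Skil by -0.40, Smad2 by -0.29 and Smad3 by 0.56 on the log2 scale, the same directions as with all libraries. Without Irf1-/- replicate 2, the library with the highest myeloid markers, the differences were -0.36 for Ski, -0.33 for Skil, -0.26 for Smad2 and 0.73 for Smad3.

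Compared per kilobase of exon, Tgfb1 was the most abundant of these RNAs, from 528 to 542 normalized counts per kb in WT libraries and from 558 to 581 in Irf1-/- libraries. Of the 11327 tested genes with a length, 94.1% had a lower level per kb. Ski came next, from 360 to 392 per kb in WT and 291 to 302 in Irf1-/- cells. In WT, Skil (235 to 250) and Tgfbr1 (226 to 236) overlapped, whereas in Irf1-/- cells Tgfbr1 (210 to 216) stood above Skil (190 to 198). Smad4 and Tgfbr3 followed with overlapping levels, 122 to 149 and 111 to 134 per kb in WT, and then Tgfbr2 with 77.9 to 94.8. Of the receptor-regulated SMADs, Smad2 was above Smad3 in WT, with 60.7 to 64.5 against 33.4 to 48.5 per kb. In Irf1-/- cells Smad3 ranged from 54.3 to 71.8 per kb and Smad2 from 49.8 to 54.5, so that their ranges overlapped and the order of their means was turned. Both lay near the middle of the tested genes, 43.5% of which had a lower level per kb than Smad3 and 46.3% a lower level than Smad2.

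The other genes of the pathway were taken from 5 lists by role and showed no common direction. Each list is described by its counts, its median and its called genes, to be read against the 23.7% of all tested genes called and their median of -0.004.

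Of 14 genes for further ligands and for activation of the ligand, 8 were tested, and 1 rose and 1 fell, with a median log2 fold change of 0.09. Furin, the protease that cuts the TGF-β precursor and is itself a TGF-β-induced gene in T cells, had normalized counts of 3135, 3330 and 3848 in WT and 5631, 5450 and 5829 in Irf1-/- cells. All mutant values were above all WT values, by 0.72 on the log2 scale (adjusted p = 9.07e-05, limma). Itgb1, integrin β1, a partner of the αv chain that can release the active ligand, fell from 1782, 1648 and 1736 to 918, 904 and 1074, or -0.84 on the log2 scale (adjusted p = 3.63e-05, limma). Both stayed called in each alternative, the libraries with Xist included. Ltbp4 was called in addition with the Ddx3y covariate. The ligand gene Tgfb3 averaged under 10 and was not tested. It is named because its values, 2.5, 4.81 and 3.07 in WT and 16.7, 9.71 and 19.2 in Irf1-/- cells, did not overlap, and without the filter it was called (log2 fold change 1.84, adjusted p = 0.015, limma). Ltbp3, a binding protein of the latent ligand, was also untested and without overlap, with 6.24, 4.81 and 3.69 in WT and 10.7, 18.0 and 12.8 in Irf1-/- cells, and was not called without the filter. Thbs1, thrombospondin, which can activate latent TGF-β, is named because its values stood out: 71.1, 270 and 75.6 in WT and 425, 1327 and 61.4 in Irf1-/- cells, overlapping and not called. It was highest in Irf1-/- replicate 2, the library with the highest myeloid markers, and their part in its level was not tested.

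Of 16 other receptors and SMADs of the TGF-β superfamily, which bind activins and bone morphogenetic proteins, 10 were tested, and 4 rose and 1 fell, with a median of 0.08. Acvrl1, or ALK1, a type I receptor that signals through SMAD1 and SMAD5, had 34.9, 25.2 and 47.3 normalized counts in WT and 170, 186 and 153 in Irf1-/- cells. Its log2 fold change of 2.25 (adjusted p = 5.11e-05, limma) was the largest of any list. Eng, endoglin, a co-receptor that works with ALK1, went the other way, from 78.6, 109 and 64.5 to 28.7, 44.4 and 24.3, or -1.36 on the log2 scale (adjusted p = 0.00398, limma). The type I receptor genes Bmpr1a (0.73, adjusted p = 0.00257), Acvr1 (0.53, adjusted p = 0.0237) and Acvr1b (0.30, adjusted p = 0.0435) also rose. Of these, Acvr1 and Acvr1b lost the call in 9 and 11 of 18 alternatives, the Ddx3y covariate included, where their log2 fold changes were 0.58 and 0.37 (adjusted p = 0.0662 and 0.0605). Of the 5 called genes Acvrl1 and Bmpr1a were called in the libraries with Xist, where the differences were 0.58 for Acvr1, 0.405 for Acvr1b and -1.02 for Eng without a call. Smad1 and Smad5, the SMADs downstream of ALK1, were at 102 to 156 and 314 to 351 normalized counts in WT and at 103 to 134 and 336 to 377 in Irf1-/- cells, overlapping and not called.

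All 25 modulators of receptors and SMADs were tested, and 4 rose and 4 fell, with a median of -0.08. Those that rose were the deubiquitinase gene Usp11 (0.70, adjusted p = 0.0172), the kinase gene Hipk2 (0.66, adjusted p = 0.00607), and the ubiquitin ligase genes Nedd4l (0.51, adjusted p = 0.0165) and Smurf1 (0.28, adjusted p = 0.0124), the product of which works with SMAD7. Those that fell were Usp9x (-0.38, adjusted p = 0.0134), which removes ubiquitin from SMAD4, Map3k7 (-0.26, adjusted p = 0.0149), which encodes the kinase TAK1, Usp15 (-0.21, adjusted p = 0.029), a deubiquitinase of receptors and SMADs, and Strap (-0.19, adjusted p = 0.0475), a partner of SMAD7. With the Ddx3y covariate, where 17.5% of all genes were called, 5 of these 8 calls were lost: Usp11 (0.51, adjusted p = 0.127), Hipk2 (0.43, adjusted p = 0.0505), Nedd4l (0.30, adjusted p = 0.182), Map3k7 (-0.18, adjusted p = 0.115) and Strap (-0.18, adjusted p = 0.116). Smurf1, Usp9x and Usp15 stayed called there, and Ldlrad4 and Trim33 were called in addition. Over the 18 alternatives Strap lost its call in 10, edgeR and DESeq2 among them, Usp15 in 6, Usp11 and Map3k7 in 5 each and Usp9x and Nedd4l in 3 each. In the libraries with Xist, where 6.89% of all genes were called, limma called 0 of the 25, with 6 at an unadjusted p below 0.05. In that fit, with its single WT library, the differences of Smurf1 (0.36), Usp9x (-0.46) and Usp15 (-0.29) were larger in size than with all libraries. With all libraries edgeR and DESeq2 called 7 each.

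Targets were listed by the direction in which TGF-β is known to move them. Of 17 induced targets, 13 were tested, and 3 rose and 2 fell, with a median of -0.08. Il9, the signature cytokine of Th9 cells (log2 fold change 1.75, adjusted p = 9.25e-06), Nt5e, which encodes the ectoenzyme CD73 (0.92, adjusted p = 0.000226), and Foxp3, the factor of regulatory T cells (0.89, adjusted p = 5.8e-05), rose. Foxp3 was at 190, 172 and 183 normalized counts in WT and at 331, 337 and 343 in Irf1-/- cells, separate by a wide margin. Cdkn1a, which encodes the cell cycle inhibitor p21, fell from 1056, 1170 and 855 to 617, 614 and 505 (-0.82, adjusted p = 0.000749). Runx1 fell by 0.26 on the log2 scale (adjusted p = 0.0166), a call lost in 7 of 18 alternatives, the Ddx3y covariate included (-0.19, adjusted p = 0.125). Ldlrad4 was called in addition with the covariate. The 3 that rose and Cdkn1a were also called in the libraries with Xist.

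Of 16 repressed targets, 13 were tested, and 3 rose and 4 fell, with a median of -0.09. Eomes, a factor of cytotoxic and Th1 cells, was at 33.7, 33.7 and 51.0 in WT and at 8.36, 5.55 and 20.5 in Irf1-/- cells, which makes -1.86 on the log2 scale (adjusted p = 0.00869, limma). Klf2, a factor of resting T cells (-1.72, adjusted p = 0.0255), Il2 (-1.15, adjusted p = 0.0062) and Tbx21, the Th1 factor T-bet (-0.36, adjusted p = 0.0108), also fell. S1pr1, a receptor for exit from lymph nodes (0.99, adjusted p = 0.00183), Id2 (0.73, adjusted p = 0.000438) and Id1 (0.53, adjusted p = 0.00863), inhibitors of E proteins and targets of bone morphogenetic protein signalling, rose. With the Ddx3y covariate Myc was called in addition, while Klf2 was at -0.82 (adjusted p = 0.244) and Tbx21 at -0.19 (adjusted p = 0.0958). The calls of Klf2 and Tbx21 were also lost without a trend, without WT replicate 1 and without WT replicate 2. The other 5 calls of this list held with the covariate, and S1pr1 and Id2 were the ones called in the libraries with Xist. There, without a call, Eomes was at -2.25, Id1 at 0.61 and Il2 at -0.84. The lists of induced and of repressed targets thus each held genes called in both directions.

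**Figure D4:**
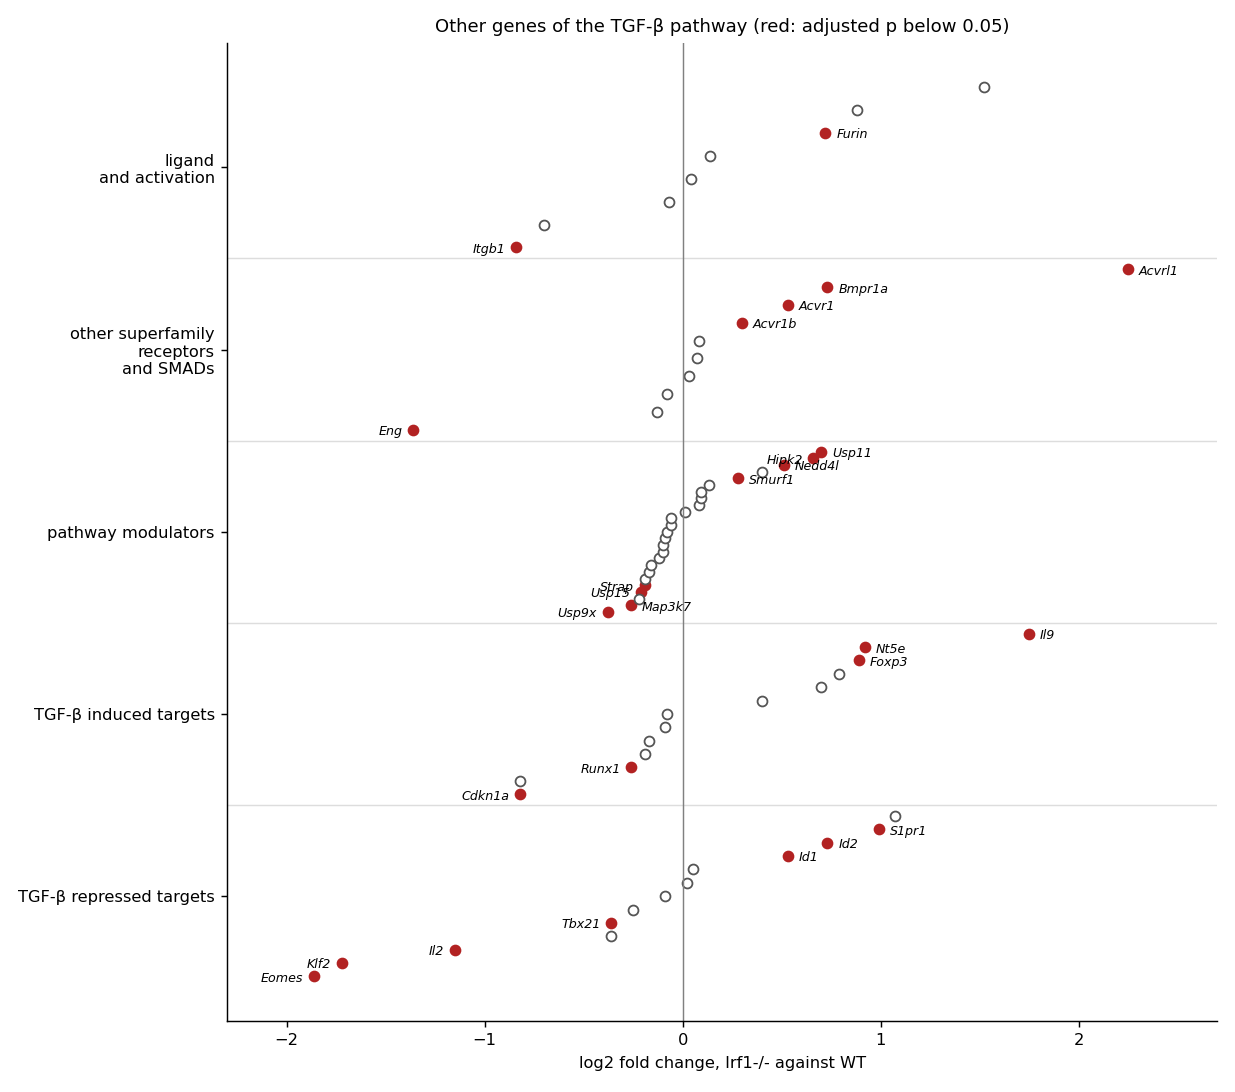
Log2 fold changes of the tested genes of the 5 lists, Irf1-/- against WT (x axis), in a band for each list and sorted within it, with red filled points and names for genes with an adjusted p below 0.05. Called genes lie on both sides of 0 in every band, from Eomes at -1.86 to Acvrl1 at 2.25.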

How the data were processed

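RNA of 3 WT and 3 Irf1-/- Th9 cultures was sequenced as single-end reads from poly(A) libraries. Per the submitters' processing notes, the authors aligned reads to GRCm38 with STAR 2.4.0b, counted them with featureCounts and used DESeq2 1.12.3. The deposited signal is a normalized count, reads on a gene over the size factor of the library, and 100% of non-zero values came out as whole reads within 0.01 reads. The strand setting and the treatment of reads that match several genes are not given in the sources used here. Of 41388 genes, 19805 were at 0 throughout and 40254 matched a symbol. A value of 3 reads is 1.84 to 4.16 normalized counts.

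Genotypes were compared in R 4.3.3 with limma 3.58.1 (eBayes with trend) on log2(normalized count + 1), which understates changes of low genes, for the 11379 genes averaging 10 or more, and p was adjusted over these by Benjamini-Hochberg, with a threshold of 0.05. Ratios were compared by exact permutation. Other settings were a pseudocount of 0.1 or 10, an average of 50 or more or no filter, TMM, quantile normalization, no trend, a replicate block, a Ddx3y covariate, recovered reads in edgeR 4.0.16 or DESeq2 1.42.0, replicates 1 and 2 only, and each library left out. The 4 libraries with Xist and the replicate 3 pair were added after seeing the data. The fits were tested on simulated data. The members and lists were chosen with earlier results of these data known. The rule named all members, Irf1, Ddx3y, Xist and up to 4 called genes per list and direction. Gene positions and exon lengths came from GENCODE on GRCm38, and promoter windows from RefSeq (GRCm38.p6). ChIP-Seq was not analysed here.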

Additional observations from a re-analysis of the deposited data

How the results depend on the processing

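Ski and Skil stayed called, lower, in all 18 alternatives, Smad3 in 16 and Smad2 in 13, and no called member changed direction. Of the 10 members, 4 were called, but 6 with replicates 1 and 2 only and without WT replicate 3 (Smad4 and Tgfbr3 gained), 5 under quantile normalization (Tgfb1 gained), 2 with the Ddx3y covariate and 1 in the libraries with Xist, a choice made after seeing the data that leaves 1 WT library, and the cause was not tested. Of all tested genes, 34.2% were called with replicates 1 and 2, 24.6% without WT replicate 3, 21.7% under quantile normalization, 17.5% with the covariate and 6.89% with Xist, against 23.7%. The share was 35.2% under the replicate block, 15.2% without trend, 17.6% with DESeq2 and 14.3% to 24.6% with a library left out. Without the filter it was 11.7% of 21583 genes. The ligand list had 2 calls, with 4 under the replicate block, 4 with replicates 1 and 2 only and 2 to 4 with a library left out (4 without Irf1-/- replicate 3). The superfamily list had 5, with 3 without the filter, 3 with the covariate, 3 with DESeq2, 3 with replicates 1 and 2, 2 with Xist and 3 to 4 with a library left out. Modulators had 8, with 5 under quantile normalization, 3 without trend, 5 with the covariate, 13 with replicates 1 and 2, 0 in the libraries with Xist (limma, 6 at an unadjusted p below 0.05, against 7 by edgeR and 7 by DESeq2 on all libraries) and 3 to 10 with a library left out. Induced targets had 5, with 8 under the block and 12 with replicates 1 and 2, and repressed targets 7, with 2 in the libraries with Xist. Among all genes, 1406 were lower and 1293 higher. The lower count was 807 without trend, 2116 under the block, 392 with Xist and 826 to 1472 with a library left out, and the higher count 392 with Xist and 799 to 1372 with a library left out. Both fell by over 1.5 times without WT replicate 1, WT replicate 2 or Irf1-/- replicate 2, the libraries without which Smad2 lost its call.

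Signs turned for small differences. The log2 fold change of Smad4 was -0.001 with Xist, and that of Smad7 was -0.025 under quantile normalization, -0.002 with edgeR, -0.034 with replicates 1 and 2 and -0.127 to 0.099 with a library left out. The Skil to Ski difference was -0.102 with Xist and -0.046 to 0.061 with a library left out, and that of Tgfbr2 to Tgfbr1 -0.144 to 0.077 with a library left out. In the libraries with Xist, the log2 ratio of Tgfbr2 to Tgfbr1 was -0.93 in WT replicate 3 and averaged -1.16 in Irf1-/- cells. The cause was not tested. Each library correlated best with the library of its own number in the other genotype. These correlations of the deviations were 0.092, 0.269 and 0.321 for numbers 1, 2 and 3. The main fit held no replicate term, and a shared effect of the replicate number was not tested. The block kept the 4 called members, with 35.2% of all tested genes called there against 23.7% in the main fit. The Smad3 to Smad2 difference gave p = 0.25 by exact sign flips, the smallest possible. With 3 libraries a group and the sex-linked RNAs of WT unevenly spread, small changes of the receptors were not resolved.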
